A study of Drosophila melanogaster with 12 samples.

Results

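The cytoplasmic ribosome is built from ribosomal RNA and a set of small, mostly basic proteins, each encoded in Drosophila by 1 main gene and, for some proteins, by a paralogue with narrower expression. The mRNAs of these genes are among the most abundant in growing cells, and their products are assembled in near equal numbers into a large and a small subunit. Growth signals such as the TOR kinase, S6 kinase and the transcription factor Myc are known to set how much ribosome a cell makes. In the wandering larva the fat body, the fly's liver-like and fat-storing organ, ends its growth while the steroid ecdysone acts through its receptor EcR.

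The genes described here were all rows of the deposited table whose symbol began with RpL or RpS followed by a digit or a capital P, read with upper and lower case kept apart. The rule found 86 genes among 10047, of which 51 carried a large subunit name and 35 a small subunit name. It used no measured value. All 86 passed the filter of a mean of at least 1. They lay on chromosomes 2L (18 genes), 2R (19), 3L (14), 3R (20), 4 (1) and X (14).

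RNA was sequenced from fat bodies of female larvae that had left the food to pupate (wandering larvae), in 4 groups of 3 libraries. The libraries labelled EcR RNAi, called EcRi here, came from larvae that carried the UAS-EcR RNAi construct of VDRC stock 37058 and were fed food with 0.5 M or 0.15 M sucrose. The control libraries came from a cross with VDRC stock 60000, named vw1118 in the sample titles (vvw1118 in 1 of them), and had the same diets. Larvae of both genotypes carried UAS-Dcr2, which strengthens RNA interference, and r4-GAL4, a driver active in the fat body. Whether the 3 libraries of a group were separate crosses is not stated in the labels, and p-values cover the variation among these libraries, which may be technical.

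EcR itself, the target of the construct, had a mean signal of 1414 ± 328 in EcRi on 0.5 M, 1132 ± 106 in EcRi on 0.15 M, 1454 ± 64.2 in controls on 0.5 M and 1380 ± 173 in controls on 0.15 M (SD, n = 3 each). The EcRi minus control difference of EcR did not pass the test on either diet (limma, Benjamini-Hochberg adjusted p = 0.847 on 0.5 M and 0.386 on 0.15 M). The genotype is therefore given as labelled. All 8 fat body markers listed, among them the larval serum proteins, were measured and held between 20.7% and 27.9% of the signal of a library. Control 0.5 M replicate 1 stood apart: its signal summed to 15045575, against 8864826 to 10966639 in the other 11 libraries, and its 10 highest genes held 47.8% of it. The main counts and medians over the set are given with all 12 libraries and without that library.

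The ribosomal protein genes together gave a large and fairly even share of the fat body's RNA signal. Their summed signal was 834824, 961477 and 954970 in the EcRi libraries on 0.5 M and 853211, 853573 and 816324 in the EcRi libraries on 0.15 M. It was 1405305, 783080 and 916432 in the controls on 0.5 M, and 754799, 785625 and 747935 in the controls on 0.15 M. Control 0.5 M replicate 1 was the highest of all, and the other 2 libraries of its group fell among those of the remaining groups. As a share of all signal in the library the genes held 9.42 ± 1.17% in EcRi on 0.5 M, 8.56 ± 0.410% in EcRi on 0.15 M, 9.18 ± 0.489% in controls on 0.5 M and 8.28 ± 0.155% in controls on 0.15 M (SD, n = 3 each). By share, control 0.5 M replicate 1, at 9.34%, lay between the other 2 libraries of its group, at 8.62% and 9.56%.

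**Figure D1:**
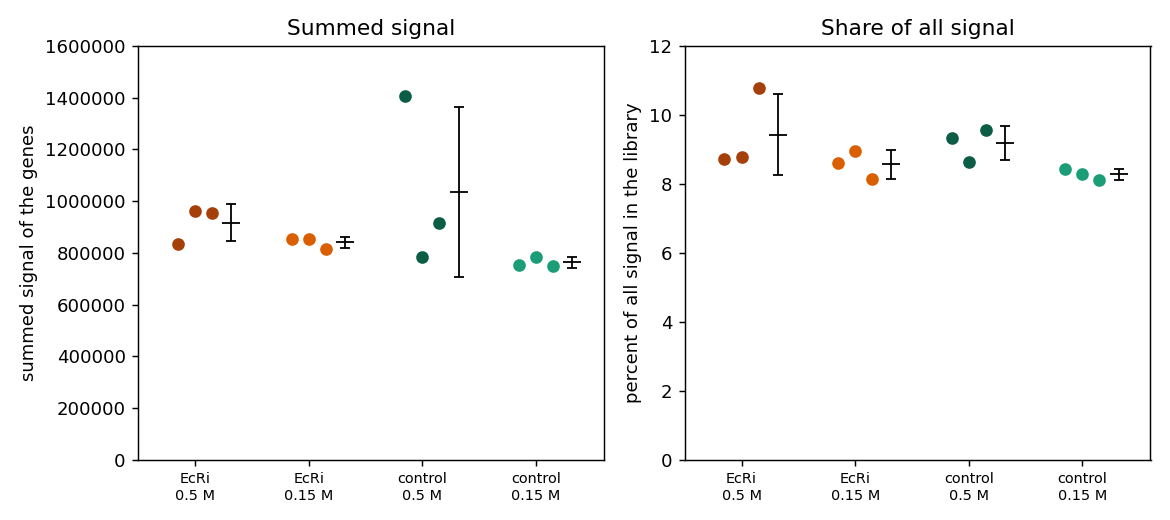
Summed signal of the 86 ribosomal protein genes (left) and their share of all signal in the library (right, percent) in the 4 groups. Points are libraries, and bars give the mean ± SD of 3 libraries. Control 0.5 M replicate 1 stands out in the sum, at 1405305, and not in the share, at 9.34%.

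Most of the genes sat in a narrow band of level. The mean signal over the 12 libraries lay between 3000 and 30000 for 77 of the 86, above 30000 for 1, between 1000 and 3000 for 1 and below 1000 for 7. The 5 with the most signal were RpLP2, one of the acidic stalk proteins that bring elongation factors to the ribosome, RpL41, the smallest protein of the large subunit, then RpS29, RpL13A and RpS7. Per kilobase of the longest annotated transcript RpL41 ranked first, at 73759, and RpLP2 next, at 49998. The 5 with the least signal were RpL7-like, RpS15Ab, RpLP0-like, RpS5b and RpS19b, the last with a mean of 5.27. Of the 86 genes, 31 had exons that overlap those of another gene in the BDGP6 annotation; whether reads were counted by strand is unknown from the labels, so reads of such neighbours, RpS10b and RpL22 among them, could not be told apart.

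The genes moved together from library to library, and control 0.5 M replicate 1 stood highest. In that library the median gene lay 0.68 above its own mean on the log2 scale, against -0.22 to 0.14 in the other 11. Of the 86 genes, 80 had their highest value there. The genes that are not ribosomal but lie in the same band of level (237 genes with a mean between 3000 and 30000) were also high in it, by a median of 0.46, while the median over all genes was -0.02. Across the 12 libraries the correlation of a gene with the median of the set had a median of 0.909 and exceeded 0.5 for 79 of the 86. Without control 0.5 M replicate 1 that median was 0.765, and 63 genes exceeded 0.5. These correlations are a description; the libraries share their normalisation, and each gene is part of the median it is set against.

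With all 12 libraries 4 genes correlated negatively with the median of the set, and without control 0.5 M replicate 1 there were 10. Several of these values were too small to show that a gene ran against the set. RpLP0-like, RpS19b, RpL7-like and RpS15Ab had a negative correlation with the median of the set over 12 libraries, of -0.56, -0.40, -0.25 and -0.06. RpS5b stood at 0.03, RpL41 at 0.29 and RpL35 at 0.43, the other genes not above 0.5. The 10 that were negative without that library were RpL22 (-0.83), RpS19b (-0.62), RpL35 (-0.49), RpL41 (-0.34), RpS15Ab (-0.32), RpLP0-like (-0.31), RpS20 (-0.18), RpS5b (-0.12), RpL6 (-0.056) and RpL28 (-0.0061), while RpL7-like was at 0.31. RpS20, RpL6 and RpL28 are named because of these values.

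**Figure D2:**
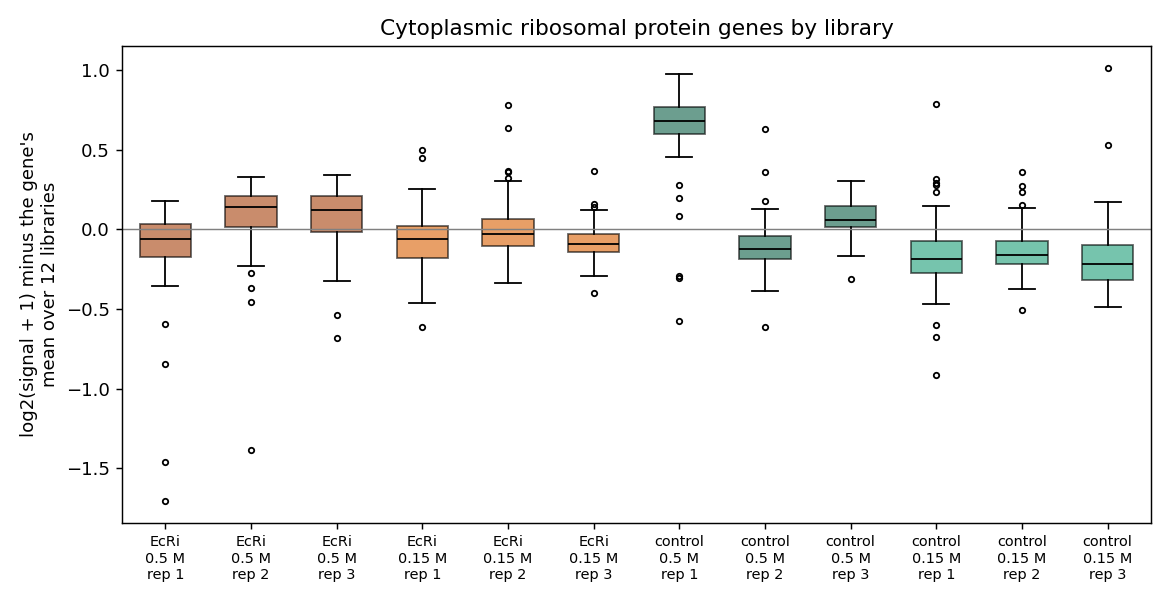
Distribution over the 86 ribosomal protein genes of log2(signal + 1) minus the gene's own mean over 12 libraries (y axis, log2), for each library. Boxes span the quartiles with the median as a line, whiskers reach 1.5 times the box, and circles are genes beyond them. The median is 0.68 in control 0.5 M replicate 1 and between -0.22 and 0.14 in the other libraries.

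The first comparison was genotype on high sugar: EcRi against control on 0.5 M sucrose. RpL41 fell to about 0.513 of its control level, and RpL35, a large subunit protein at the mouth of the exit tunnel, to about 0.603. The other 84 genes did not pass the test, and none was called higher. RpL41 had a signal of 12526, 16405 and 14036 in EcRi on 0.5 M, against 37224, 20636 and 27848 in controls on 0.5 M. The groups did not overlap, and the highest EcRi library lay below the lowest control. The log2 difference was -0.96 ± 0.23 (SE; limma, Benjamini-Hochberg adjusted p = 0.0066). RpL35 had a signal of 3079, 2925 and 2435 in EcRi on 0.5 M, against 6423, 4010 and 3886 in controls on 0.5 M. Its groups did not overlap either, and the log2 difference was -0.73 ± 0.23 (SE; limma, Benjamini-Hochberg adjusted p = 0.0345).

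On this diet 2 of the 86 genes were called lower (2.33%) and 0 higher, shares below the 8.11% and 10.9% of all genes tested. At an unadjusted p under 0.05, 4 were lower and 1 was higher, against 14.1% and 16.4% of all genes. Values did not overlap between EcRi and control for 7 genes lower and 1 higher, against 16.1% and 19.5% of all genes. The median log2 difference over the 86 genes was -0.15, beside -0.002 over all genes, with 74 genes below 0, where 50.3% of all genes were; the sign of that median turned without control 0.5 M replicate 1 (0.097) and when libraries were scaled to a common sum of signal (0.014). Without control 0.5 M replicate 2 the median was -0.33 and 4 genes were called lower. The share of all genes called in that fit is not given, so this count shows no gain particular to the set. Without control 0.5 M replicate 1, RpL41 was still called lower (-0.75 ± 0.17, limma, Benjamini-Hochberg adjusted p = 0.00578) and RpL35 was not (-0.50 ± 0.20, adjusted p = 0.0958), in a fit that called 11.9% of all genes higher and 7.50% lower. Then 60 of the 86 differences were above 0, where 49.1% of all genes were, and values did not overlap for 21 genes higher and 8 lower, against 26.9% and 23.7% of all genes. The call on RpL35 was also lost without each single EcRi 0.5 M library, at adjusted p between 0.0601 and 0.127. Fewer cells of a type and less RNA per cell cannot be told apart in such whole-tissue samples. Marker sums of other cell types were apart between the same groups for the hemocyte, salivary gland and germline lists. As shares of all signal, the salivary gland ranges overlapped, at 0.0214% to 0.0646% in EcRi and 0.0482% to 0.344% in controls. The muscle, nervous system and imaginal disc sums overlapped. The 4 nervous system markers summed to between 5006 and 5747 in EcRi and between 3591 and 7016 in controls on 0.5 M. Their shares of all signal were apart, at 0.0523% to 0.0579% in EcRi and 0.0395% to 0.0466% in controls. The 6 hemocyte markers summed to between 7291 and 8905 in EcRi and between 4901 and 5505 in controls on 0.5 M, and the 7 measured of 8 salivary gland markers to between 1900 and 6949 in EcRi and between 7251 and 31278 in controls. None was listed at 0, and their part in the results was not tested.

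The same comparison on normal food, EcRi against control on 0.15 M sucrose, gave a small difference that most of the genes shared. It was not particular to the set. The 237 other genes in the same band of level had median log2 deviations from their own means of -0.07, -0.07 and -0.02 in EcRi. In controls on 0.15 M those genes had -0.10, -0.16 and -0.23. Among the 86 genes the values were as follows. The log2 difference was above 0 for 71 of the 86 genes, where 54.3% of all genes were, and its median was 0.13 beside 0.04 over all genes; under quantile normalisation that median was -0.058, the opposite sign. In 32 genes all 3 EcRi libraries lay above all 3 controls and in 2 all lay below, that is 37.2% and 2.33% of the set against 15.5% and 12.5% of all genes. With limma none of the 86 was called at an adjusted p under 0.05, where 6.19% of all genes were called higher and 5.01% lower; 1 was higher at an unadjusted p under 0.05, against 12.0% of all genes. Nervous system and salivary gland marker sums were apart between the same libraries, in opposite directions. The hemocyte, muscle, imaginal disc and germline sums overlapped. As shares of all signal, the imaginal disc markers were apart, at 0.00747% to 0.00822% in EcRi and 0.00837% to 0.00967% in controls on 0.15 M. The 4 nervous system markers summed to between 5043 and 5685 in EcRi and between 3499 and 4172 in controls on 0.15 M. The 7 measured salivary gland markers summed to between 1320 and 3845 in EcRi and between 20199 and 23820 in controls on 0.15 M. None was listed at 0, and their part in the result was not tested.

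RpS10b, a small subunit protein, was the farthest from the set on 0.15 M. It had a signal of 6277, 5971 and 5826 in EcRi on 0.15 M, against 2996, 3977 and 4472 in controls on 0.15 M. The 3 controls on 0.15 M were the lowest of all 12 libraries for this gene. The log2 difference of 0.68 ± 0.24 did not pass the test with all libraries (SE; limma, Benjamini-Hochberg adjusted p = 0.0867), and it passed in the fit without control 0.5 M replicate 1, a library outside this comparison, where the SE was 0.16 (adjusted p = 0.00728). That fit called 7.77% of all genes higher and 6.52% lower, and 2 of the 86 higher, RpS10b and RpL38. RpL38, a large subunit protein whose mouse counterpart is known for a role in translating Hox mRNAs, had a signal of 8088, 7048 and 6300 in EcRi on 0.15 M, against 4754, 4737 and 5407 in controls on 0.15 M. Its groups did not overlap; the log2 difference was 0.52 ± 0.26 (limma, Benjamini-Hochberg adjusted p = 0.263), and the adjusted p was 0.043 in the fit that leaves out control 0.5 M replicate 1. RpL22, a large subunit protein, differed in the other direction, with a signal of 4566, 4818 and 4856 in EcRi on 0.15 M, against 5185, 5532 and 5726 in controls on 0.15 M. The groups did not overlap, and the log2 difference of -0.21 ± 0.22 did not pass the test (limma, Benjamini-Hochberg adjusted p = 0.677, or 0.269 in the fit that leaves out control 0.5 M replicate 1).

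**Figure D3:**
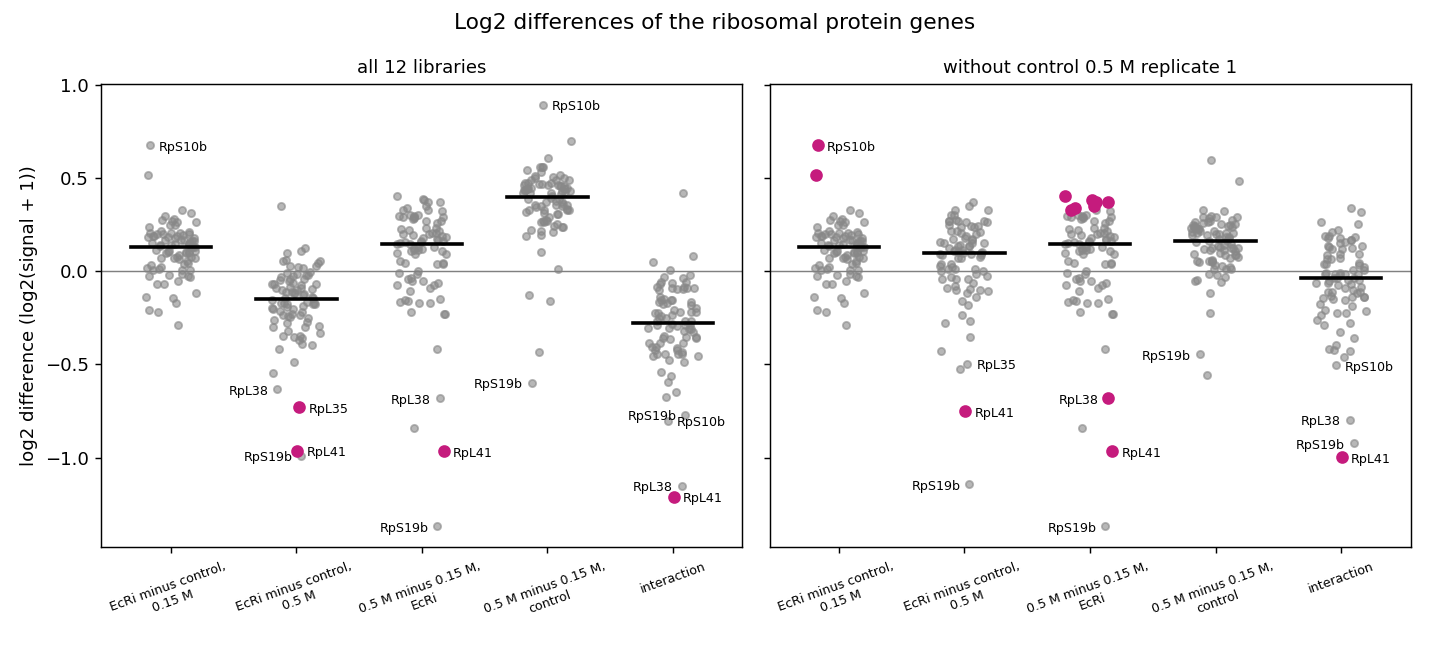
Log2 differences of the 86 ribosomal protein genes (y axis, log2(signal + 1) scale) in 5 comparisons, from the fit to all 12 libraries (left) and from the fit without control 0.5 M replicate 1 (right). Each point is a gene, a larger coloured point is a gene called at a Benjamini-Hochberg adjusted p under 0.05 over all genes, and black lines are medians over the 86. The median for EcRi minus control on 0.5 M is -0.15 on the left and 0.10 on the right, with RpL41 called in both.

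High sugar was then set against normal food within each genotype. In EcRi, RpL41 fell to about 0.511 of its level on 0.15 M, and no other of the 86 was called. RpL41 had a signal of 12526, 16405 and 14036 in EcRi on 0.5 M, against 30718, 29031 and 24187 in EcRi on 0.15 M. The 3 EcRi libraries on 0.5 M were the lowest of all 12, and the log2 difference was -0.97 ± 0.23 (SE; limma, Benjamini-Hochberg adjusted p = 0.00689). RpL38 had a signal of 3782, 4971 and 4631 in EcRi on 0.5 M, against 8088, 7048 and 6300 in EcRi on 0.15 M. Its groups did not overlap, and the log2 difference of -0.68 ± 0.26 missed the threshold with all libraries (limma, Benjamini-Hochberg adjusted p = 0.0686).

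The rest of the set was spread around a small positive value, and other genes of like level moved the same way. The 237 other genes in the same band of level had median log2 deviations from their own means of 0.15, 0.27 and 0.12 in EcRi on 0.5 M. In EcRi on 0.15 M they had -0.07, -0.07 and -0.02, so a rise with diet was not particular to the set. The median log2 difference over the 86 genes in EcRi was 0.15, beside -0.02 over all genes, with 61 above 0, where 48.3% of all genes were; it was -0.060 under upper quartile scaling and -0.015 under quantile normalisation, both of the opposite sign. Values did not overlap for 36 genes higher and 6 lower on 0.5 M, that is 41.9% and 6.98% of the set, against 24.5% and 20.2% of all genes. Of all genes 14.0% were called higher and 10.4% lower, against 0 and 1 of the 86. At an unadjusted p under 0.05, 0 of the 86 were higher and 4 lower, against 19.9% and 17.9% of all genes. RpS3A, a small subunit protein and the only one of the 86 on chromosome 4, had the highest difference, with 16470, 18477 and 17353 in EcRi on 0.5 M, against 13273, 13623 and 12576 in EcRi on 0.15 M. The groups were apart, and the log2 difference was 0.41 ± 0.21 (limma, Benjamini-Hochberg adjusted p = 0.174).

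Without control 0.5 M replicate 1, which is no part of the EcRi comparison but enters the pooled estimate of spread, 9 of the 86 were called, against 17.1% of all genes higher and 12.3% lower. The 7 higher, RpS3A, RpS4, RpL7 and RpL5 among them, had log2 differences between 0.33 and 0.41, and the 2 lower were RpL41 and RpL38. The count was 2 without EcRi 0.15 M replicate 1, without EcRi 0.5 M replicate 3 and without control 0.5 M replicate 2. Shares of all genes called in those fits are not given, so their counts show no gain particular to the set. Markers of some other cell types moved with diet in EcRi, while the nervous system and salivary gland sums overlapped between diets. The 6 hemocyte markers summed to between 7291 and 8905 in EcRi on 0.5 M and between 4615 and 5823 in EcRi on 0.15 M, and the 8 muscle markers to between 32177 and 67800 on 0.5 M and between 7093 and 23870 on 0.15 M. The 5 imaginal disc markers summed to between 653 and 744 on 0.5 M and between 749 and 800 on 0.15 M. As shares of all signal their ranges overlapped, at 0.00657% to 0.00839% on 0.5 M and 0.00747% to 0.00822% on 0.15 M. None of these markers was listed at 0, and their part in the results was not tested.

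In controls the median log2 difference between 0.5 M and 0.15 M was 0.40 (1.32-fold), beside -0.01 over all genes, with 82 of 86 above 0, where 48.6% of all genes were. It was 0.16 without control 0.5 M replicate 1, stood at 0.57 without control 0.5 M replicate 2, and kept its sign under upper quartile (0.31), signal sum (0.15) and quantile scaling (0.080). No gene of the set was called, against 1.55% of all genes higher and 0.169% lower, although 31 passed an unadjusted p under 0.05 (36.0% of the set, against 9.63% of all genes). Values did not overlap for 36 genes, all higher, against 10.2% of all genes higher and 7.76% lower. Without control 0.5 M replicate 1, 5 were higher at an unadjusted p under 0.05, against 6.31% of all genes, and none was called, against 0.936% of all genes higher and 0.109% lower. Values then did not overlap for 36 genes higher and 1 lower, against 14.4% and 12.6% of all genes. The 237 other genes in the same band of level had median log2 deviations from their own means of 0.46, -0.11 and -0.04 in controls on 0.5 M. In controls on 0.15 M they had -0.10, -0.16 and -0.23.

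RpS10b and RpL5 differed most with diet in controls. RpS10b had a signal of 10598, 5230 and 6190 in controls on 0.5 M, against 2996, 3977 and 4472 in controls on 0.15 M. The groups did not overlap, and the log2 difference was 0.90 ± 0.24 (SE; limma, Benjamini-Hochberg adjusted p = 0.0751), or 0.60 ± 0.17 without control 0.5 M replicate 1 (adjusted p = 0.156). RpL5, which joins 5S rRNA to the large subunit together with RpL11, had 30145, 18295 and 20318 in controls on 0.5 M, against 14569, 13712 and 13043 in controls on 0.15 M. Its groups did not overlap, and the log2 difference was 0.70 ± 0.21 (limma, Benjamini-Hochberg adjusted p = 0.11), or 0.49 ± 0.13 without control 0.5 M replicate 1 (adjusted p = 0.104). Both genes were called without control 0.5 M replicate 2, at adjusted p = 0.0168 for RpS10b and 0.0328 for RpL5. RpL5 was also higher in all 3 EcRi libraries on 0.5 M (18862, 20392 and 21973) than in all 3 on 0.15 M (16484, 16460 and 15063), with a log2 difference of 0.35 ± 0.21.

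The interaction asked whether diet acted differently in the 2 genotypes. RpL41 was the only one of the 86 called (1.16% of the set), where 2.59% of all genes were called higher in the interaction and 1.33% lower. Its diet difference was -0.97 in EcRi and 0.24 in controls, a difference between them of -1.21 ± 0.32 (SE; limma, Benjamini-Hochberg adjusted p = 0.0473). The 4 group means of RpL41 were 14322 ± 1955 in EcRi on 0.5 M, 27979 ± 3390 in EcRi on 0.15 M, 28569 ± 8317 in controls on 0.5 M and 23542 ± 2543 in controls on 0.15 M (SD, n = 3 each). The 3 libraries of EcRi on 0.5 M lay below all of the other 9, and the ranges of the other groups overlapped. The call held in the fit without control 0.5 M replicate 1 (-0.999 ± 0.23, adjusted p = 0.0242, where 3.75% of all genes were called higher and 1.54% lower) and without control 0.5 M replicate 2, and it was lost without each of the other 10 libraries, at adjusted p between 0.0511 and 0.143. RpL41's difference from the median of the set was also lower in EcRi on 0.5 M, at 0.52 ± 0.13, than in EcRi on 0.15 M (1.58 ± 0.16), controls on 0.5 M (1.31 ± 0.12) or controls on 0.15 M (1.51 ± 0.11), all on the log2 scale.

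RpL38 came next in the interaction, with a signal of 11239, 4379 and 6601 in controls on 0.5 M beside the values given above. Its difference was -1.15 ± 0.37 (SE; limma, Benjamini-Hochberg adjusted p = 0.0869), with an adjusted p of 0.0699 once control 0.5 M replicate 1 was left out. It was called in the fit without control 0.5 M replicate 2 (adjusted p = 0.0135). Over the 86 genes the median of the interaction was -0.28, beside -0.05 over all genes, with 82 below 0, where 53.2% of all genes were. It was -0.037 without control 0.5 M replicate 1, with 52 below 0 against 52.6% of all genes, and -0.46 without control 0.5 M replicate 2, and it kept its sign under the 3 other scalings, from -0.40 to -0.018. Across the 86 genes, some of the differences ran with transcript length and with level. Spearman's rho with length was 0.43 for diet in EcRi, 0.33 for the interaction and 0.31 for genotype on 0.5 M. It was 0.16 for diet in controls and -0.15, the opposite sign, for genotype on 0.15 M. Spearman's rho with mean signal was 0.41 for diet in EcRi, 0.26 for the interaction, 0.52 for genotype on 0.5 M and 0.39 for genotype on 0.15 M. For diet in controls, rho with mean signal was 0.19. Without control 0.5 M replicate 1, rho for diet in controls was 0.076 with length and 0.087 with mean signal. These rho values are descriptions over genes, which share libraries and normalisation.

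**Figure D4:**
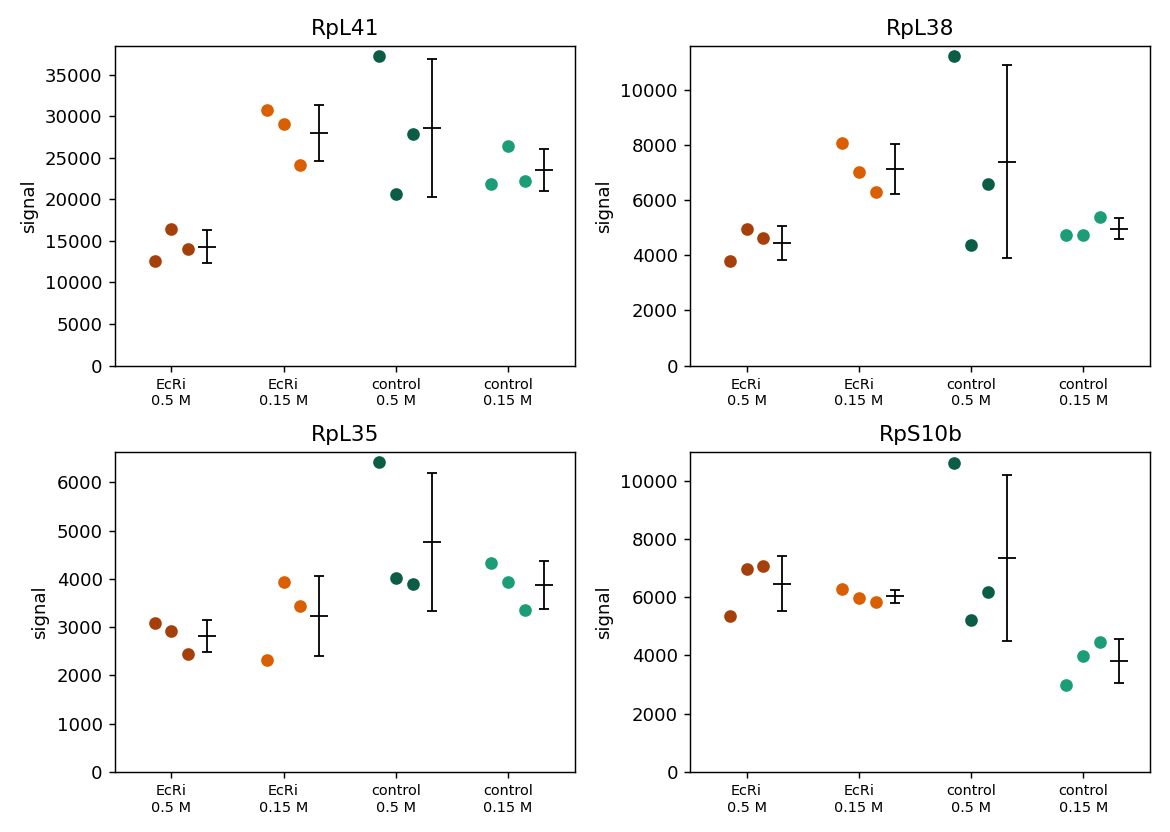
Signal of RpL41, RpL38, RpL35 and RpS10b in the 12 libraries, by group. Points are libraries, and bars give the mean ± SD of 3. RpL41 is lowest in the 3 EcRi libraries on 0.5 M (12526 to 16405), and RpS10b is lowest in the 3 controls on 0.15 M (2996 to 4472).

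The medians of the large and small subunit genes lay close to each other in every comparison. In the comparison of EcRi with control on 0.5 M the median log2 difference was -0.17 over the 51 large subunit genes and -0.11 over the 35 small subunit genes, and on 0.15 M it was 0.11 and 0.15. With diet it was 0.12 and 0.16 in EcRi, and 0.40 and 0.39 in controls, and in the interaction it was -0.30 and -0.26. With control 0.5 M replicate 1 left out, both medians turned positive for EcRi against control on 0.5 M (0.072 and 0.12), and they were 0.16 and 0.17 for diet in controls and -0.051 and -0.014 in the interaction. No test of large against small subunit was made.

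Paralogues show which copy of a protein the fat body's RNA holds. Of 13 pairs listed, both genes were measured in 8, and in each of them 1 gene gave most of the signal in every library. RpS19b and RpS5b, copies that are enriched in the fly's germline, were the rarest. RpS19b gave between 0.0108% and 0.118% of the signal of its pair with RpS19a, and RpS5b between 0.0402% and 0.269% of its pair with RpS5a. RpLP0-like, RpL7-like and RpL24-like, relatives of factors that assemble the large subunit rather than copies of the mature protein, gave between 0.236% and 0.900%, between 0.651% and 1.67%, and between 4.25% and 6.10% of their pairs. RpS15Ab gave between 0.902% and 1.68% beside RpS15Aa, and RpL34a between 11.6% and 14.5% beside RpL34b. RpS14b, a neighbouring and nearly identical copy of RpS14a whose reads may be shared between them, gave between 31.9% and 36.2%.

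**Figure D5:**
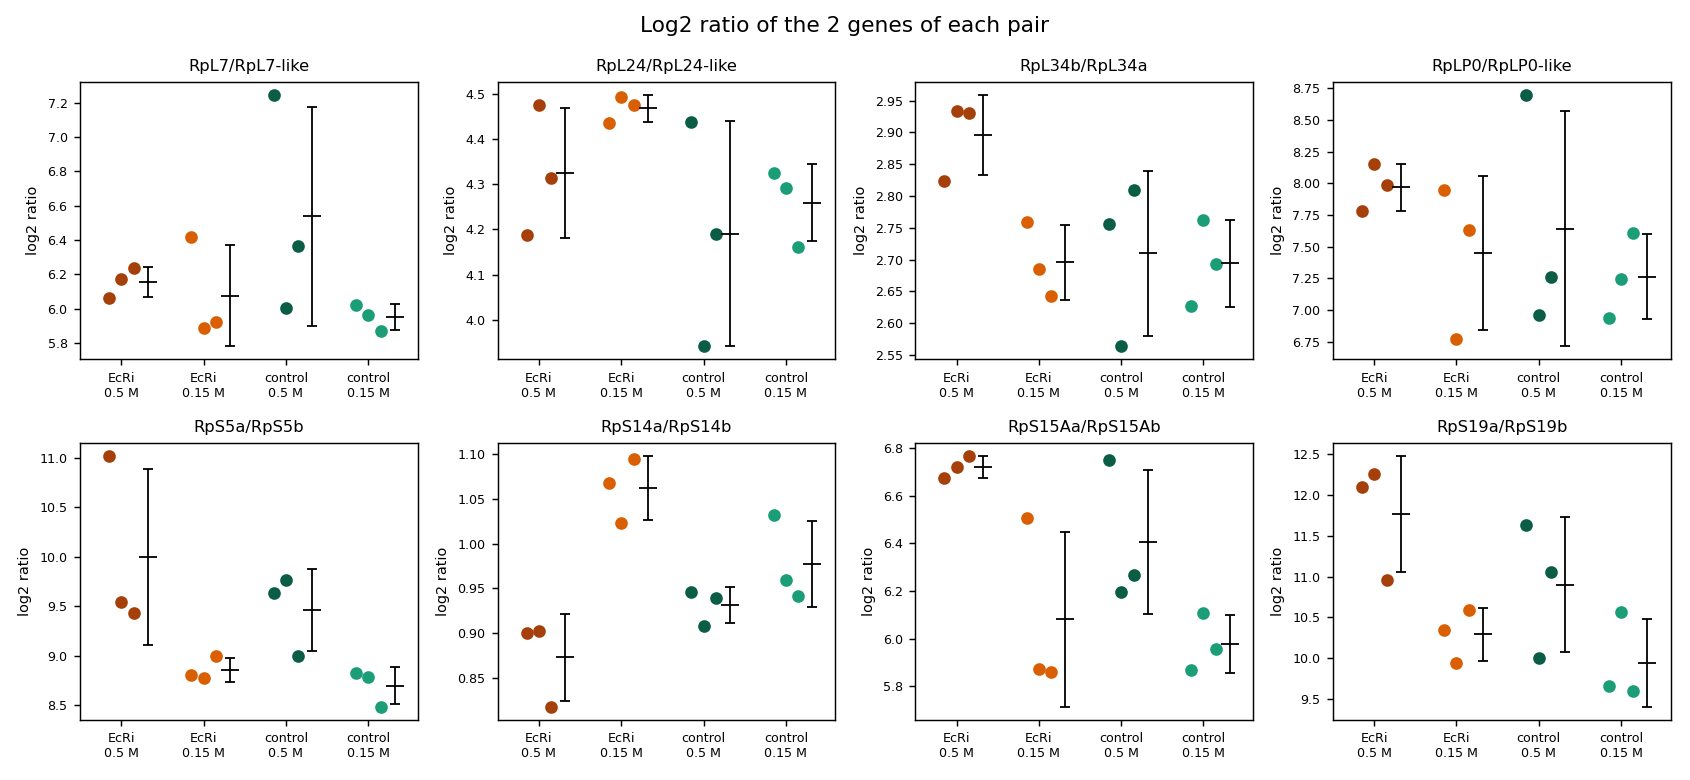
Log2 ratio of the signal of the 2 genes of each of 8 pairs (gene named first over gene named after the slash), by group. Points are libraries, bars give the mean ± SD of 3 libraries, and the y axes differ between panels. RpS14a over RpS14b runs from 0.82 to 0.90 in EcRi on 0.5 M and from 1.02 to 1.09 in EcRi on 0.15 M.

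The balance within the pairs was described by the log2 ratio of their genes. The log2 ratio of RpS14a over RpS14b was 0.87 ± 0.05 in EcRi on 0.5 M, 1.06 ± 0.04 in EcRi on 0.15 M, 0.93 ± 0.02 in controls on 0.5 M and 0.98 ± 0.05 in controls on 0.15 M (SD, n = 3 each). For this pair the EcRi libraries on 0.5 M did not overlap those on 0.15 M. RpL34b over RpL34a was 2.90 ± 0.06 in EcRi on 0.5 M, 2.70 ± 0.06 in EcRi on 0.15 M, 2.71 ± 0.13 in controls on 0.5 M and 2.69 ± 0.07 in controls on 0.15 M, with EcRi on 0.5 M above all other libraries. RpS15Aa over RpS15Ab was 6.72 ± 0.05 in EcRi on 0.5 M, 6.08 ± 0.37 in EcRi on 0.15 M, 6.405 ± 0.30 in controls on 0.5 M and 5.98 ± 0.12 in controls on 0.15 M. These ratios are descriptions, and none of the 16 genes of the pairs was called in any comparison with all libraries.

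The levels of the rarer copies are given next, and none of them passed the test with all libraries. RpS15Ab had a signal of 112, 120 and 117 in EcRi on 0.5 M, against 150, 139 and 160 in controls on 0.5 M. The groups did not overlap, and the log2 difference was -0.36 ± 0.17 (limma, Benjamini-Hochberg adjusted p = 0.179, or 0.226 once control 0.5 M replicate 1 was left out). RpL7-like had 211, 222 and 218 in EcRi on 0.5 M, against 152, 193 and 167 in controls on 0.5 M, the one gene of the set with all 3 EcRi libraries above all 3 controls on this diet. Its log2 difference was 0.35 ± 0.16 (limma, Benjamini-Hochberg adjusted p = 0.155), and 0.27 ± 0.17 once control 0.5 M replicate 1 was left out (adjusted p = 0.306). RpLP0-like had 81.8, 69.4 and 82.3 in EcRi on 0.5 M, 64.8, 140.2 and 81.3 in EcRi on 0.15 M, 60.1, 115.9 and 108.8 in controls on 0.5 M and 112.3, 108.8 and 86.9 in controls on 0.15 M. For this gene the ranges overlapped between genotypes on both diets and between diets in both genotypes.

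RpS19b had a signal of 1.02, 1.12 and 4.11 in EcRi on 0.5 M, against 5.60, 8.50 and 5.02 in EcRi on 0.15 M. The groups did not overlap, and the log2 difference of -1.37 ± 0.50 missed the threshold (limma, Benjamini-Hochberg adjusted p = 0.0563). Leaving out EcRi 0.5 M replicate 3 brought that adjusted p to 0.0251. RpS5b had a signal of 5.07, 18.3 and 18.3 in EcRi on 0.5 M, against 22.3, 24.4 and 21.1 in EcRi on 0.15 M, again without overlap (adjusted p = 0.143). The 3 measured of 10 listed germline markers, aub, AGO3 and piwi, summed to between 26.3 and 36.2 in EcRi on 0.5 M and between 65.6 and 74.4 in EcRi on 0.15 M. Their sums ran from 38.9 to 68.1 in controls on 0.5 M and from 42.5 to 71.6 in controls on 0.15 M; none was listed at 0, and their part in the RpS5b and RpS19b values was not tested.

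Genes of the rest of the translation machinery were set beside the 86. Of 6 symbols listed for ribosomal components outside the rule, 2 were found, sta (the small subunit protein SA) and Rack1 (a scaffold on the small subunit). The other listed symbols can be older names of genes already within the 86, so they are not shown to be missing. Neither sta nor Rack1 was called in any comparison. Sta had a mean signal of 25557 ± 2944 in EcRi on 0.5 M, 21080 ± 1877 in EcRi on 0.15 M, 23638 ± 8036 in controls on 0.5 M and 19086 ± 1391 in controls on 0.15 M (SD, n = 3 each). Of 71 mitochondrial ribosomal protein genes, 4 were called lower in EcRi against control on 0.5 M, with a list median of -0.27, and 8 lower on 0.5 M against 0.15 M in EcRi, with a median of -0.26. Of all genes, 8.11% and 10.4% were called lower in these comparisons. mRpL34 was in both counts, at -0.99 ± 0.28 and -1.31 ± 0.28. With control 0.5 M replicate 1 left out, the first count was 1 lower and 1 higher, and the second was 12 lower, against 7.50% and 12.3% of all genes lower. No test compared this list with the cytoplasmic set. mRpL36 was the one called higher in EcRi against control on 0.15 M, at 0.75 ± 0.21 (limma, Benjamini-Hochberg adjusted p = 0.0303), where 6.19% of all genes were.

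Of 21 translation factors measured, 7 were called higher on 0.5 M against 0.15 M in EcRi and none lower, with a list median of 0.41, where 14.0% of all genes were called higher and 10.4% lower. They were the elongation factor Ef2b, the initiation factor 3 subunits eIF-3p40, eIF3-S8, eIF3-S9 and eIF3-S10, the helicase eIF-4a and the poly(A)-binding protein pAbp. The highest difference was that of Ef2b, at 0.80 ± 0.22 (limma, Benjamini-Hochberg adjusted p = 0.0143). Against controls on 0.5 M, eIF3-S9 (0.58 ± 0.17) and eIF3-S10 (0.67 ± 0.21) were called higher in EcRi, where 10.9% of all genes were. In controls none of the 21 was called with diet, where 1.55% of all genes were called higher and 0.169% lower. The list median there was 0.28, or 0.12 without control 0.5 M replicate 1. In the interaction with all libraries none of the 21 was called, where 2.59% of all genes were called higher and 1.33% lower. Leaving out control 0.5 M replicate 1, 9 were higher with diet in EcRi, 6 in EcRi against control on 0.5 M, and 3 in the interaction, against 17.1%, 11.9% and 3.75% of all genes.

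Of 19 nucleolar and ribosome assembly genes measured, 2 were called higher and 2 lower on 0.5 M against 0.15 M in EcRi, where 14.0% of all genes were called higher and 10.4% lower. The GTPases ns2 (0.66 ± 0.14) and CG8801 (1.46 ± 0.19) were higher, and the snoRNP proteins hoip (-1.07 ± 0.26) and NHP2 (-0.97 ± 0.26) were lower. Against controls on 0.5 M, ns2 (0.47 ± 0.14) and CG8801 (0.76 ± 0.19) were also called higher in EcRi and hoip (-0.999 ± 0.26) lower, beside 10.9% and 8.11% of all genes. The counts without control 0.5 M replicate 1 were 3 higher and 5 lower with diet, and 2 higher and 3 lower against controls, beside 17.1%, 12.3%, 11.9% and 7.50% of all genes.

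Of 13 growth and promoter factors measured, 5 were called higher on 0.5 M against 0.15 M in EcRi (dm, gig, S6k, Thor and Tor), 3 higher in EcRi against control on 0.5 M (2 without control 0.5 M replicate 1), and 2 lower in EcRi against control on 0.15 M. Of all genes, 14.0%, 10.9% and 5.01% were called in these directions. S6k, the S6 kinase, had a signal of 680, 661 and 609 in EcRi on 0.5 M, 390, 307 and 357 in EcRi on 0.15 M, 288, 278 and 294 in controls on 0.5 M and 274, 327 and 264 in controls on 0.15 M. The 3 EcRi libraries on 0.5 M lay above the other 9, and the interaction was 0.89 ± 0.19 (SE; limma, Benjamini-Hochberg adjusted p = 0.0184). Thor, the 4E-BP that restrains cap-dependent initiation, had a signal of 988, 648 and 776 in EcRi on 0.5 M, 179, 159 and 228 in EcRi on 0.15 M, 1294, 1011 and 677 in controls on 0.5 M and 636, 717 and 982 in controls on 0.15 M. It was lowest in the EcRi libraries on 0.15 M, with a log2 difference of -2.03 ± 0.24 from controls (adjusted p = 2.7e-05). Its interaction was 1.75 ± 0.34 (adjusted p = 0.0121) and that of gig, the Tsc2 inhibitor of TOR, 0.91 ± 0.20 (adjusted p = 0.021), so that 3 of the 13 were called higher in the interaction, against 2.59% of all genes. Tor was also called lower in EcRi on 0.15 M (-0.55 ± 0.14, adjusted p = 0.0184). dm, the fly Myc, was called higher in EcRi on 0.5 M, by 0.51 ± 0.16 against controls and by 0.55 ± 0.16 against EcRi on 0.15 M, and gig by 0.65 ± 0.14 and 0.73 ± 0.14.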

How the data were processed

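For 10047 genes and 12 libraries the authors deposited a normalised signal in 1 table, from libraries made from ribosome-depleted RNA and read on an Illumina HiSeq. Per the submitters' processing notes, edgeR, Cufflinks 1.1.0, Bowtie 0.12.7 and TopHat 1.3.2 were used; what each did is not recorded. How the signal was calculated, its annotation and genome build, strandedness and gene filters are not given in the sources used here. Values are not whole counts, none was 0, and their median per library lay between 103 and 111, so the read depth is unknown. A scaling that differs between levels could move highly expressed genes together, and whether it did so here was not tested.

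Values were taken as log2(value + 1), a scale that understates changes of low genes, and genes needed a mean of at least 1, which all had. A linear model of the 4 groups was fitted to every gene with limma 3.58.1 (R 4.3.3; empirical Bayes with trend and robust options), and p-values were adjusted by Benjamini-Hochberg over 10047 genes; a gene was called at an adjusted p under 0.05. The fit was tested on simulated data, in which genes varied independently and no library stood apart, unlike the data described here. Medians over the set carry no test.

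The genes, gene lists and marker lists were chosen with earlier results of these data known. Named genes were those called, both genes of the pairs, the 3 highest and 3 lowest in each comparison, the 5 highest and 5 lowest by level, those more than 3 scaled median absolute deviations from the median of the set, EcR, and called genes of the related lists; exceptions are named as such. Current names were used to match older symbols: 81 of the 86 identifiers were in the names table, and 5 were matched by symbol. Transcript lengths and overlaps came from the BDGP6 annotation. Alternatives were another pseudocount, another filter, 3 scalings, a replicate block, fits of 2 groups, each library left out in turn and, chosen after seeing the data, scaling to the median of the set.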

Additional observations from a re-analysis of the deposited data

Results flagged for a closer look

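The difference between genotypes in the response to diet was past the threshold for RpL41, which drew attention to it: the diet difference on the log2 scale was -0.97 in EcRi and 0.24 in controls, and the interaction was -1.21 (limma, Benjamini-Hochberg adjusted p = 0.0473). The signal of RpL41 was lower in all 3 EcRi libraries on 0.5 M than in all 3 on 0.15 M, while the libraries of the 2 control groups overlapped. Of 19 alternatives the interaction stayed past the threshold in 8, with log2 values from -1.42 to -0.86 and adjusted p up to 0.143.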

How the results depend on the processing

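Between EcRi and control on 0.15 M the number of genes called, 0 in the result as reported, was 1 under signal sum scaling, 2 under quantile normalisation and 2 in a fit of only those groups. On 0.5 M, where 2 were called, it was 11 under quantile normalisation and 1 in a fit of 2 groups. Of all 10047 genes, quantile normalisation called 1886 between EcRi and control on 0.5 M and 1325 on 0.15 M. Signal sum scaling called 902 of all genes on 0.15 M. With diet in EcRi 1 gene of the set was called. The number was 4 under upper quartile scaling, 5 under signal sum scaling, 5 under quantile normalisation and 7 in a fit of 2 groups. Of all genes, upper quartile scaling called 2565 with diet in EcRi, signal sum scaling 1405 and quantile normalisation 1867. In the interaction, where 1 of the set was called, the number was 2 under quantile normalisation, which called 373 of all genes. Leaving out 1 library gave 0 to 2, 1 to 4, 1 to 9, 0 to 2 (diet in controls) and 0 to 2 (interaction) genes of the set. Shares of all genes without control 0.5 M replicate 1 are given above. None is given for the fits of 2 groups or the other libraries left out. Those counts therefore show no gain particular to the set.

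The median log2 difference over the set turned negative for EcRi minus control on 0.15 M under quantile normalisation (-0.058), positive on 0.5 M under signal sum scaling (0.014), and negative for diet in EcRi under upper quartile scaling (-0.060) and quantile normalisation (-0.015). For diet in controls it was 0.15 under signal sum scaling and 0.080 under quantile normalisation, and for the interaction -0.018 under signal sum scaling. With 1 library left out the medians ran from 0.10 to 0.15 and from -0.33 to 0.097 for genotype on 0.15 M and 0.5 M, from 0.10 to 0.21 and from 0.16 to 0.57 for diet in EcRi and controls, and from -0.46 to -0.037 for the interaction; the 0.097 on 0.5 M, without control 0.5 M replicate 1, has the opposite sign. The mean deviation of the set in EcRi on 0.15 M, -0.061, was 0.035 under upper quartile scaling. In EcRi on 0.5 M, 0.067, it was -0.047 under upper quartile scaling and -0.066 under quantile normalisation. In controls on 0.15 M, -0.19, it was -0.14 under upper quartile scaling, -0.083 under signal sum scaling and 0.022 under quantile normalisation. In controls on 0.5 M it ran from -0.034 to 0.37 with 1 library left out. The cause was not tested. The RpS19a over RpS19b ratio was 9.29 with a pseudocount of 10, by construction for so low a gene, against 10.7.

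Scaling also moved the median over all genes by more than 0.1: under upper quartile scaling to -0.23 for diet in EcRi and -0.16 for the interaction, and under signal sum scaling to 0.16 for EcRi minus control on 0.5 M, -0.25 for diet in controls and 0.20 for the interaction. Among all genes called for diet in EcRi, 30.1% were higher under upper quartile scaling and 49.9% under quantile normalisation.

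RpL41 stayed called in 20 of 20 alternatives in EcRi minus control on 0.5 M and in 20 of 20 for diet in EcRi, with adjusted p up to 0.0495 and 0.0424. RpL35 stayed called on 0.5 M in 14 of 20. Of 180 pairs of a named gene and a comparison, 158 were called under no setting and none changed direction where called.

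The labels do not say whether same-numbered libraries belong together. Of 12 correlations between same-numbered libraries of different groups, 1 was above 0.1 (range -0.20 to 0.16). With 3 libraries a group these values cannot show that the libraries were unpaired. With the replicate block the number called in the interaction was 0, RpL41 having an adjusted p of 0.0787, and the block changed no other call among the 86. The read depth is unknown, which limits what the values of RpS19b and RpS5b can show.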
